A study of Homo sapiens with 2 samples.

Results

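The miR-200 family comprises the microRNAs (miRNAs) miR-200a, miR-200b, miR-200c, miR-141 and miR-429, and 9 of its mature strands have probes on the array used here, out of 2549 human miRNAs. These 9 members were chosen by name, as hsa-miR-200a-3p, hsa-miR-200b-3p, hsa-miR-200c-3p, hsa-miR-141-3p, hsa-miR-429, hsa-miR-200a-5p, hsa-miR-200b-5p, hsa-miR-200c-5p and hsa-miR-141-5p (the species prefix is left out below), and no measured value entered the choice. RNA came from exosomes, small vesicles released into the medium by FaDu cells, a human line of hypopharyngeal squamous cell carcinoma, and 200 ng of it was labelled with Cy3 for each array. One array was hybridized with RNA from cells that received a control plasmid (oe-NC), and the other with RNA from cells that received a plasmid for overexpression of HOTTIP (oe-HOTTIP), a long noncoding RNA of the HOXA locus. The labels give a lentivirus for both plasmids, whereas the methods describe lipid transfection of pcDNA3.1 plasmids, and whether the cells were a pool or a clone is not given in the sources used here. The question put to the arrays was which exosomal miRNAs differ when HOTTIP is overexpressed. Each group was 1 array, so that differences had no replicate check and no p-value is given, and every error below is the technical spread over spots of an array. The labels contradict themselves, since the free-text description of each array gives the opposite group to its title and treatment. Arrays are called here by their titles, HOTTIP itself is no target of the array and cannot settle the matter, and each direction below turns round if the descriptions are right.

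The miR-200 family is known for holding epithelial cells in their epithelial state. Its 3p strands bind the messenger RNAs of ZEB1 and ZEB2, repressors of E-cadherin, and the ZEB factors in turn repress the miR-200 genes, so that each side of this loop keeps the other low. A miRNA finds its targets mainly through its seed, the bases 2 to 8 from its 5′ end, and the opposite strand of the hairpin, usually the 5p strand in this family, is mostly degraded. The mature sequences of 8 of the 9 members were taken from RefSeq on GRCh38.p14 and are shown 5′ to 3′ with the seed in capitals, because the family divides by the seed. For miR-141-5p only the name is given. The first 3 share one seed, the next pair shares another, and these seeds belonged to no other miRNA in the RefSeq table. The 5p strands follow.
miR-200b-3p: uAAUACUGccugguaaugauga
miR-200c-3p: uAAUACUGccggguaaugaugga
miR-429: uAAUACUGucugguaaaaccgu
miR-200a-3p: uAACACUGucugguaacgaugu
miR-141-3p: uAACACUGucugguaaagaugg
miR-200a-5p: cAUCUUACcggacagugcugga
miR-200b-5p: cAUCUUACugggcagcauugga
miR-200c-5p: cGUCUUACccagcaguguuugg

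Counted from 1 at the 5′ end and with the base of the first-named miRNA written first, the seeds of miR-200b-3p and miR-141-3p differed at 1 base, U4C. Outside the seed the sister strands were close to each other. Between miR-200b-3p and miR-200c-3p, 2 of the first 22 positions differed (U11G and A22G), and between miR-200a-3p and miR-141-3p also 2 (C17A and U22G). miR-429 stood further away, with 6 mismatches to miR-200b-3p and 7 to miR-200c-3p.

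The genes lie in 2 clusters, both on the plus strand. On chromosome 1, MIR200B (chr1:1167104-1167198), MIR200A (chr1:1167863-1167952) and MIR429 (chr1:1169005-1169087) lie within the noncoding host gene MIR200BHG. On chromosome 12, MIR200C (chr12:6963699-6963766) and MIR141 (chr12:6964097-6964191) lie 330 bases apart within the noncoding host gene MIR200CHG. The hairpins of this second cluster are shown with the listed mature strands in capitals, because their 3p strands were detected on both arrays and had different values of the log2 difference.
MIR200C: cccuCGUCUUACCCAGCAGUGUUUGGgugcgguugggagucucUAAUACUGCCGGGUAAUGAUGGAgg
MIR141: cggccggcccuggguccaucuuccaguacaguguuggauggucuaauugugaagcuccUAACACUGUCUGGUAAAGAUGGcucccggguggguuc
Each cluster thus carries members of both seed groups, so that a difference shared by a cluster and one shared by a seed can be set side by side.

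Values are the background-subtracted intensities of the scanner output, in arbitrary units. Each member had 20 spots on each array, split over 2 probes for the 3p strands and miR-429 and over 3 or 4 probes for the 5p strands. In the text, the SD of a miRNA is pooled over spots within its probes and leaves out the difference between probes. Spots marked as outliers were left out, spots were averaged per probe and probes per miRNA, and the arrays were scaled by the 90th percentile of the 261 miRNAs that both detected, which was 279.9 for oe-NC and 439 for oe-HOTTIP. Log2 differences are the oe-HOTTIP-labelled array minus the oe-NC-labelled array. By miR-150-5p, 1 of the miRNAs that the study followed up as lower with HOTTIP, this direction opposes that of the study. The scaled log2 difference of miR-150-5p was 1.38. miR-34a-5p, also followed up, was detected on the oe-HOTTIP-labelled array alone. Its ratio of 4.55 upwards fell to 1.04 with the higher floor described below. miR-96-5p, another of them, was detected on that array alone as well (6.21 unscaled, against 4.67 on the other), and has no ratio. Directions of the remaining followed-up miRNAs, miR-19a-3p and miR-19b-3p among them, are not given here. Detection follows the mark set by the scanner software, given to 328 and 390 miRNAs respectively. Intensities measure RNA per amount of total RNA, so that they give neither the number of vesicles nor the copies per vesicle.

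Some of the 3p strands of the family were detected in this exosomal RNA. Of the 9 members, 3 were detected on both arrays, namely miR-200b-3p, miR-200c-3p and miR-141-3p, against 10.2% of all 2549 miRNAs. miR-200a-3p was detected on the oe-HOTTIP-labelled array alone, and miR-429 and all 4 of the 5p strands were detected on neither array. The chromosome 1 cluster was thus measured on both arrays through miR-200b-3p alone, and the chromosome 12 cluster through both of its 3p strands. No statement is made on which member was the most abundant, since the brightness of different probes cannot be compared.

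miR-200c-3p, the member of the first seed group encoded on chromosome 12, had nearly equal unscaled intensities on both arrays. It was 47.8 ± 11 (SD, 20 spots) on the oe-NC-labelled array and 48.2 ± 1.70 (SD, 18 spots) on the oe-HOTTIP-labelled array, an unscaled log2 difference of 0.012. The signal came from its second probe, whose used spots lay between 62.7 and 115 on the oe-NC-labelled array and between 91.0 and 97.8 on the other, so that the spots of the arrays overlapped. None of the 10 spots of the first probe was well above background on either array. The oe-HOTTIP-labelled array was brighter as a whole, with a median unscaled log2 difference of 0.67 over the 261 miRNAs. After scaling, miR-200c-3p had a log2 difference of -0.64 with a standard error over spots of 0.075, that is 1.56-fold lower for oe-HOTTIP, although not without scaling.

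miR-200b-3p, which has the same seed and lies on chromosome 1, had almost the same difference. Its unscaled intensity was 13.7 ± 2.42 (SD, 19 spots) on the oe-NC-labelled array and 13.7 ± 4.52 (SD, 19 spots) on the oe-HOTTIP-labelled array. Here too only the second probe was well above background, in 9 of its 10 spots on the oe-NC-labelled array and in 10 of 10 on the other. After scaling the log2 difference was -0.65 with a standard error over spots of 0.13, against 0.0024 without scaling, and with the outlier spots kept it was -0.45. The log2 differences of miR-200b-3p and miR-200c-3p lay 0.010 apart, with a standard error over spots of 0.15. Whether the probes of these sister strands also read each other's RNA was not tested.

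miR-141-3p, of the second seed group, went with the brightness of the whole array. Its unscaled intensity was 36.9 ± 16.0 (SD, 20 spots) on the oe-NC-labelled array and 65.3 ± 13 (SD, 18 spots) on the oe-HOTTIP-labelled array, an unscaled log2 difference of 0.82. Its probes moved together, from 62.3 ± 22.5 (SD, 10 spots) to 109 ± 17.3 (SD, 10 spots) for the first and from 11.4 ± 3.07 (SD, 10 spots) to 21.1 ± 1.83 (SD, 8 spots) for the second. The spots of the first probe still overlapped between the arrays, reaching 98.2 at most on the oe-NC-labelled array and starting at 79.9 on the other. After scaling the log2 difference was 0.17 with a standard error over spots of 0.15, and its sign changed with the processing, from -0.19 to 0.82 over 16 alternatives. A direction for miR-141-3p is therefore not given.

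**Figure D1:**
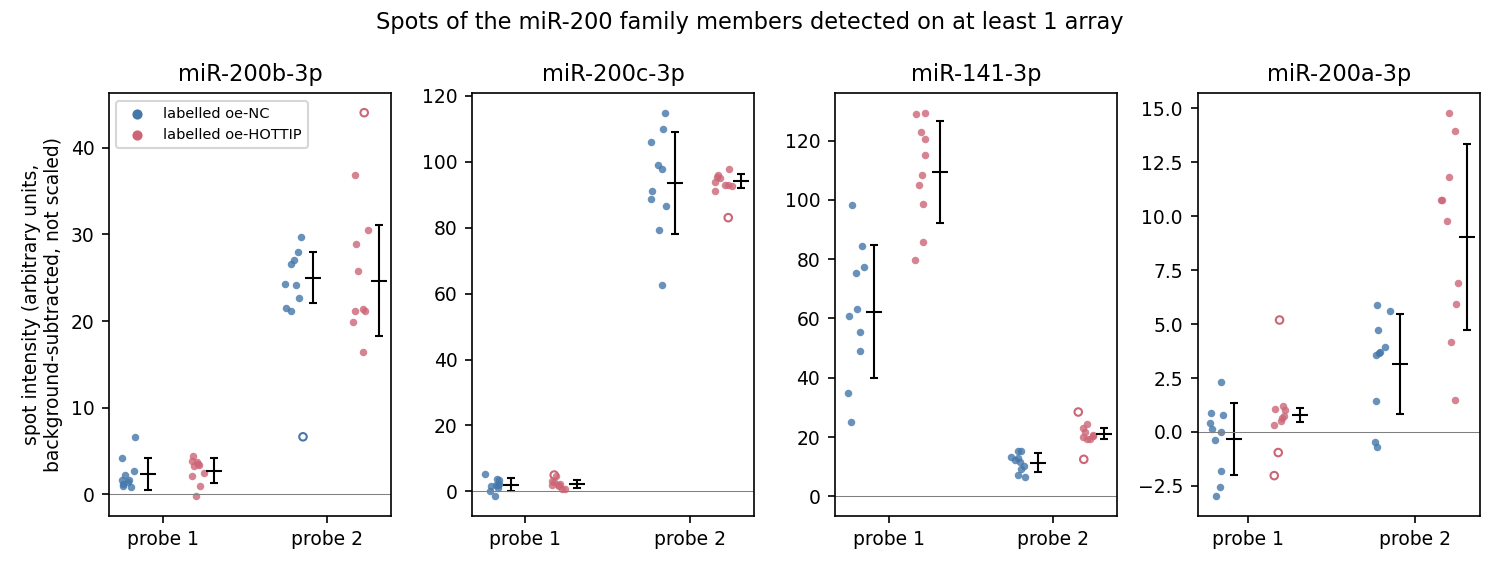
Unscaled, background-subtracted intensity (arbitrary units, linear axis that differs between panels) of each spot of the 4 members detected on at least 1 array, by probe and array. Filled points were used, open points were marked as outliers, and the black marks give mean ± SD over the used spots. The second probes of miR-200b-3p and miR-200c-3p sit at the same height on both arrays (means of 25 and 24.7, and of 93.6 and 94.2), whereas both probes of miR-141-3p are higher on the oe-HOTTIP-labelled array before scaling.

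None of the 3 members detected on both arrays passed the 2-fold threshold of the study's methods in either direction. Of all 261 such miRNAs, 21.1% were at least 2-fold lower on the oe-HOTTIP-labelled array and 18% at least 2-fold higher, 39.1% in all. The median log2 difference of the 3 members was -0.64, beside 0.024 over the 261 miRNAs, whose SD was 1.31. Of the 261 miRNAs, 117 had a smaller absolute difference than miR-200b-3p, 115 a smaller one than miR-200c-3p and 42 a smaller one than miR-141-3p. The family members thus lay in the inner part of the distribution, and 67 miRNAs had a lower log2 difference than miR-200b-3p.

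**Figure D2:**
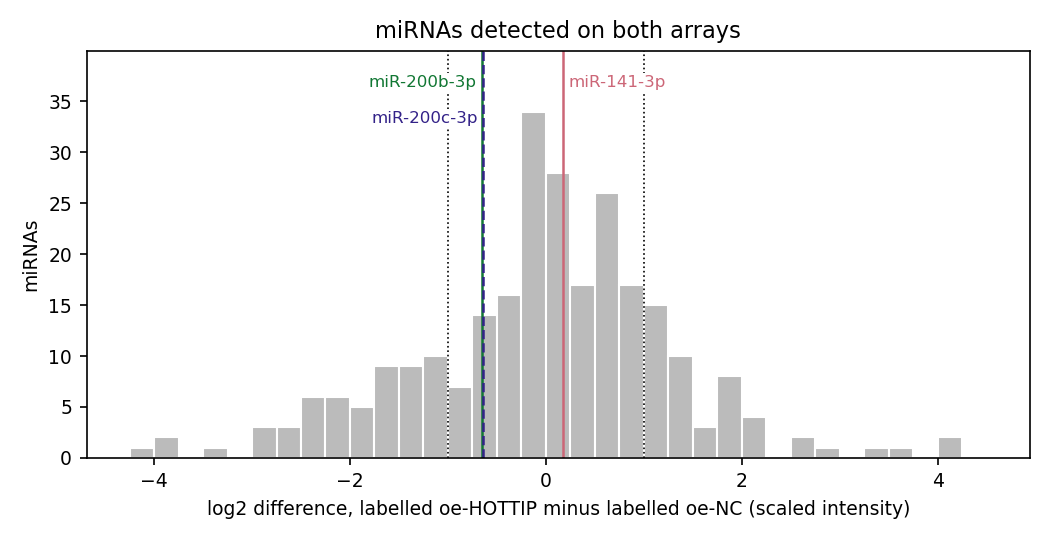
Histogram of the scaled log2 difference (oe-HOTTIP-labelled array minus oe-NC-labelled array) of the 261 miRNAs detected on both arrays, with the 3 miR-200 family members as vertical lines and the 2-fold threshold dotted. miR-200b-3p (-0.65, solid) and miR-200c-3p (-0.64, dashed) overlie each other and miR-141-3p is at 0.17, all inside the threshold. Without scaling the values are 0.0024, 0.012 and 0.82.

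The difference between members does not depend on a scaling by 1 factor per array. Measured against miR-200c-3p, miR-141-3p was 1.75-fold higher on the oe-HOTTIP-labelled array than on the oe-NC-labelled array (0.81 on the log2 scale, with a standard error over spots of 0.17), and against miR-200b-3p it was 1.77-fold higher (0.82, with a standard error of 0.20). miR-200c-3p and miR-141-3p come from neighbouring hairpins of one host gene and differed by 0.81, whereas miR-200c-3p and miR-200b-3p share a seed, lie on different chromosomes and differed by 0.010. These comparisons were chosen after the values were seen, rest on 3 miRNAs and have no test. Over all 33930 pairs of miRNAs detected on both arrays, the median absolute difference between log2 differences was 1.15, and 37.0% of the pairs differed by less than miR-141-3p and miR-200c-3p. Among pairs of miRNAs from different hairpins within 10 kb on 1 strand, the pair miR-200c-3p and miR-141-3p was 1 of 15. The median of these was 0.28, and 12 of the other 14 pairs differed by less. Many of these pairs are not independent, being all the pairs among miR-17-5p, miR-18a-5p, miR-19a-3p and miR-20a-5p, or among miR-25-3p, miR-93-5p and miR-106b-5p. Relative to the median of all 261 miRNAs, miR-200b-3p and miR-200c-3p stood at -0.67 and -0.66 and miR-141-3p at 0.15 on the log2 scale.

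**Figure D3:**
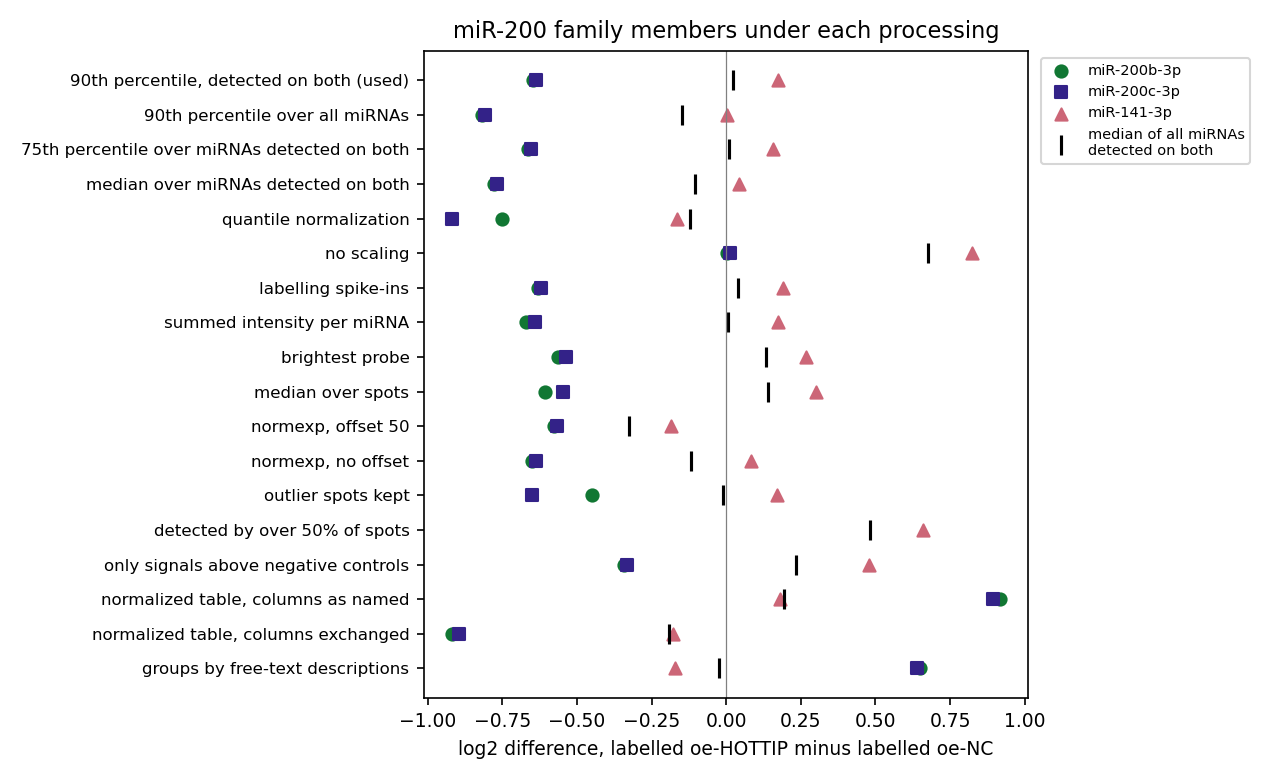
Log2 difference (oe-HOTTIP-labelled array minus oe-NC-labelled array) of miR-200b-3p, miR-200c-3p and miR-141-3p, and the median of all miRNAs detected on both arrays (black bar), under each processing. miR-200b-3p and miR-200c-3p stay left of the median of all miRNAs and of miR-141-3p wherever they are measured and the scanner arrays keep their titles. This includes the authors' table with its columns exchanged. They pass to the right with the authors' table under its own column names and with the groups of the free-text descriptions. Without scaling they lie at 0.0024 and 0.012.

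miR-200a-3p, the chromosome 1 partner of miR-141-3p by seed, was near the limit of detection. Its unscaled intensity was 1.41 ± 2.01 (SD, 20 spots) on the oe-NC-labelled array, where 0 of 20 spots were well above background, and 4.91 ± 3.34 (SD, 17 spots) on the oe-HOTTIP-labelled array, where 3 of 20 were. Negative control spots read 3.87 ± 2.37 (SD, 976 spots) and 3.45 ± 2.21 (SD, 975 spots) on these arrays. The second probe of miR-200a-3p carried the signal, with spots between -0.72 and 5.88 on the oe-NC-labelled array and between 1.49 and 14.8 on the oe-HOTTIP-labelled array. After scaling, the mean of both probes was 2.22-fold that for oe-NC, which is no lower bound, since it averages in a first probe with means of -0.32 and 0.79. The second probe alone had a scaled log2 difference of 0.88, under the 2-fold threshold. By the mean of the probes 1 of the 9 members passed the threshold upwards, against 6.08% of all 2549 miRNAs, and 0 downwards, against 4.51%, whereas by the brightest probe of each miRNA 0 members passed it. Of the 129 miRNAs detected on the oe-HOTTIP-labelled array alone, 83.7% passed it by the mean of the probes. Both intensities of miR-200a-3p were near those of the negative controls, and with a higher floor (5.32 on the oe-NC-labelled array and 6.44 on the oe-HOTTIP-labelled array, from where 50% or more of 51 miRNAs of neighbouring brightness had the detection mark) no fold could be given. On the oe-NC-labelled array, 16 of 20 spots of miR-141-3p were well above background, beside 0 of 20 of miR-200a-3p. On the oe-HOTTIP-labelled array these were 20 of 20 and 3 of 20. The strands differ at 2 positions, and whether their probes also read each other's RNA was not tested.

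The other members stayed at background. miR-429 had unscaled intensities of 1.62 ± 1.94 (SD, 20 spots) and 3.04 ± 2.71 (SD, 20 spots), and none of its spots was well above background on either array. The 4 strands of the 5p arms, which form the passenger side of the hairpins, had 80 spots per array. These lay between -5.72 and 2.56 on the oe-NC-labelled array and between -7.26 and 4.76 on the oe-HOTTIP-labelled array, with 0 spots well above background on each. Their means were between -1.62 for miR-200a-5p and -0.60 for miR-200b-5p on the oe-NC-labelled array, and between -1.25 for miR-200b-5p and -0.024 for miR-200a-5p on the other. For MIR200B, MIR200C and MIR141, the 3p strand was thus detected on both arrays and the 5p strand of the same hairpin on neither. No fold is given for these 5 members.

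**Figure D4:**
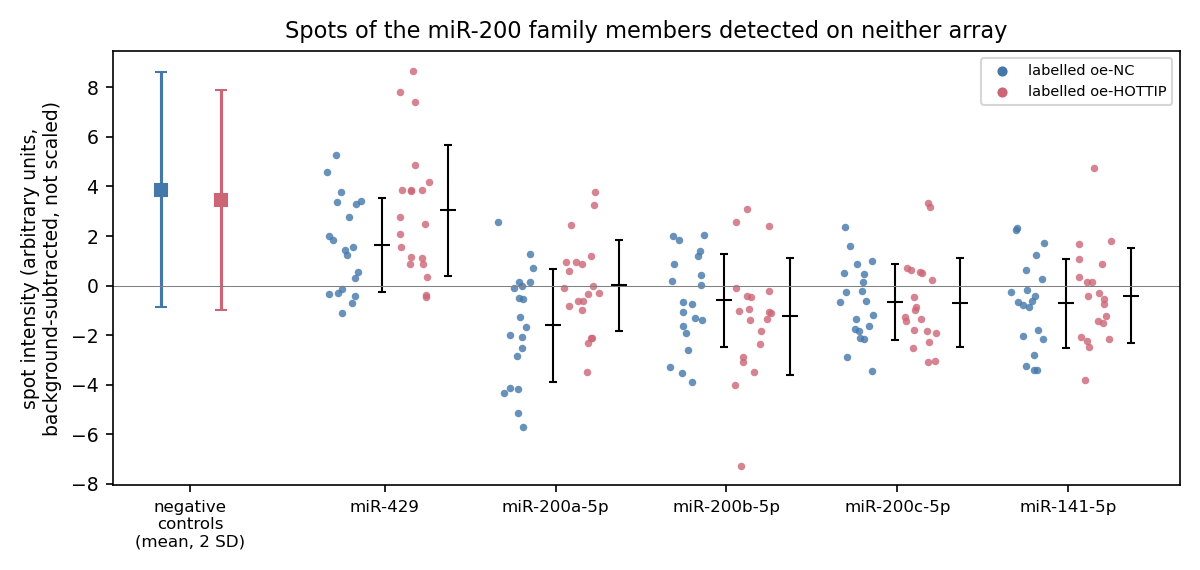
Unscaled, background-subtracted intensity (arbitrary units) of each spot of the 5 members detected on neither array, with mean ± SD in black, beside the mean ± 2 SD of the negative control spots of each array (squares). No spot of the 5p strands lies above the mean plus 2 SD of the negative controls, and 1 spot of miR-429 does (8.68, oe-HOTTIP-labelled array).

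The authors' normalized log2 table lists the same members. Its column named for oe-NC followed the scanner values of the oe-HOTTIP-labelled array, and the other way round, with a Spearman's rho across miRNAs of 1 for the crossed pairs and of 0.77 and 0.76 for the pairs of one name. In the column named for oe-NC, miR-141-3p was listed at 3.69, miR-200c-3p at 3.27, miR-200b-3p at 1.29 and miR-200a-3p at 0.18. In the column named for oe-HOTTIP these were 3.87, 4.17 and 2.21, with miR-200a-3p at the floor. The other 5 members were at the floor of 1e-06 in both columns. As named, the table puts miR-200b-3p and miR-200c-3p higher for oe-HOTTIP by 0.92 and 0.89. With the columns exchanged it puts them lower by as much, miR-141-3p by 0.18, and miR-141-3p 0.71 above miR-200c-3p. The files alone do not settle which names are right. By miR-150-5p, the direction of the study is that of the descriptions and of the table's column names.

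Other miRNAs of epithelial identity were taken as a list of 8. miR-205-5p, which also binds ZEB1 and ZEB2, was the only one detected on both arrays, at 415 ± 70.3 (SD, 19 spots) and 490 ± 44.1 (SD, 19 spots), a scaled log2 difference of -0.41. miR-203a-3p, a miRNA of differentiating squamous epithelium that ZEB1 represses, was detected on neither array. The same held for miR-182-5p, miR-34b-5p and miR-34c-5p. miR-183-5p, miR-96-5p and miR-34a-5p were detected on the oe-HOTTIP-labelled array alone, and of the 8 only miR-34a-5p passed the 2-fold threshold, at 4.55-fold higher against a signal of 1.22 on the oe-NC-labelled array, below the mean of the negative controls. With the higher floor this became 1.04-fold and was no longer called. Over all 2549 miRNAs, 10.2% were detected on both arrays, 6.08% passed the threshold upwards and 4.51% downwards. Of the 129 detected on the oe-HOTTIP-labelled array alone, as miR-34a-5p was, 83.7% passed it upwards. Of 8 miRNAs linked to loss of epithelial identity, 3 were detected on both arrays and lay between -0.089 and 0.098 on the log2 scale after scaling. These were miR-103a-3p and miR-107, which lower Dicer and with it miR-200, and miR-21-5p. In that list none was called higher. miR-10b-5p (2.62 and 5.47) and miR-221-3p (2.21 and 4.70) were detected on the oe-HOTTIP-labelled array alone, at ratios of 1.33 and 1.35 upwards. miR-9-5p and miR-155-5p were detected on neither array. miR-222-3p (5.30 and 1.66) was called lower, at 3.42-fold against the lowest detected signal of 2.43 on the oe-HOTTIP-labelled array. With the higher floor this became 1.29-fold and was no longer called.

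The labelled cell type was set against its marker miRNAs. Of 7 epithelial markers, 4 were detected on both arrays, against 10.2% of all 2549 miRNAs. These 4 are the 3 family members above and miR-205-5p. The summed unscaled intensity of all 7 was 519.8 on the oe-NC-labelled array and 629 on the oe-HOTTIP-labelled array. Of 6 blood and serum markers, 5 were also detected on both arrays, with sums over all 6 of 2281 and 2625. These sums cannot be set against each other between lists. Between the arrays they are unscaled, and the 90th percentile used for scaling was 279.9 for oe-NC and 439 for oe-HOTTIP. A higher sum on the oe-HOTTIP-labelled array is therefore not read as a higher level. Within the epithelial sums, miR-205-5p read 415 and 490. The red cell miRNA miR-451a read 2233 and 2552, a scaled log2 difference of -0.46, while miR-142-3p, a miRNA of all blood cells, was detected on neither array. miR-150-5p of lymphocytes and miR-486-5p of red cells went apart, with scaled log2 differences of 1.38 and -1.75. Those of the remaining blood and serum markers, miR-144-3p and miR-223-3p, were -0.33 and 0.69. The liver miRNA miR-122-5p (8.99 and 14.8) and the endothelial miR-126-3p (6.81 and 11) were detected on both arrays, the muscle miRNA miR-133a-3p (8.94 and 0.17) on the oe-NC-labelled array alone, and miR-1-3p, miR-124-3p, miR-143-3p and miR-145-5p on neither. The part that RNA from other sources had in the differences of the family was not tested.

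Outside the family, the miRNAs whose scaled log2 difference lay nearest to the family median of -0.64 were miR-3135b (-0.64), miR-199a-3p (-0.63) and miR-6749-5p (-0.65). This likeness is the distance of a single difference between 2 arrays, and it ranks no more than that.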

How the data were processed

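The members, lists and alternatives were chosen with earlier results of these data known. The authors deposited the Feature Extraction scanner output of 2 one-colour Agilent arrays (version 11.5.1.1 in the files, 10.10 per the labels), with a background-subtracted intensity per spot, and a normalized table of log2 values, made with GeneSpring per the methods.

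Control spots were left out, as were outlier spots (1630 on the array labelled oe-NC, 1609 on the other), and no spot was saturated. No test was run. The SD is pooled over spots within probes, and the standard error combines those of the probe means of both arrays. A miRNA detected on 1 array was given a ratio, its signal over either its own signal where undetected or the dimmest detected signal of that array, whichever is brighter. All members, the fixed lists and the 3 miRNAs nearest to the family median were named. Code was checked on simulated arrays. These had the same detection marks as each other, so that the ratios of miRNAs detected on 1 array were not checked. Tools were R 4.3.3 with limma 3.58.1 (normexp), and Python 3.11.15 with pandas 2.3.3, numpy 2.4.6 and, for plots, matplotlib 3.10.9. The number of arrays limits the precision.

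Alternatives covered the scaling (90th percentile over all miRNAs, 75th percentile, median, quantile, none, spike-ins), the summary (summed intensity, brightest probe, median over spots, single probes), normexp with an offset of 50 or none on median spot signals, outlier spots, detection, dim signals, the normalized table, the mapping of arrays and the floor of such ratios. Comparisons between members were added after the data were seen.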

Additional observations from a re-analysis of the deposited data

How the results depend on the processing

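Single probes aside, 16 alternatives kept the scanner arrays under their titles, with the columns of the authors' table exchanged to follow those arrays. Over these 16, the median log2 difference of the family changed sign in 2. It was 0.012 without scaling, where miR-200b-3p was at 0.0024 and miR-200c-3p at 0.012. With detection by over 50% of the spots it was 0.66, and 1 member, miR-141-3p, was left detected on both arrays. The table under its own column names and the groups of the descriptions, both outside the 16 and given below, changed its sign as well. miR-141-3p changed sign with quantile normalization (-0.17), normexp with an offset of 50 (-0.19) and the normalized table with exchanged columns (-0.18), while miR-141-3p minus miR-200c-3p stayed between 0.38 and 0.85 in the 15 that gave it. miR-200b-3p minus miR-200c-3p turned to 0.17 with quantile normalization and 0.20 with outlier spots kept. The authors' table under its own column names gave a median of 0.89, miR-200b-3p at 0.92, miR-200c-3p at 0.89, miR-141-3p minus miR-200c-3p at -0.71, minus miR-200b-3p at -0.74, and miR-200b-3p minus miR-200c-3p at 0.024. The groups of the free-text descriptions turned every value by construction, to a median of 0.64, miR-200b-3p at 0.65, miR-200c-3p at 0.64, miR-141-3p at -0.17, miR-200a-3p at -1.15, the pairs at -0.81, -0.82 and 0.010, and 1 member at least 2-fold lower and 0 higher. The count of members at least 2-fold higher, 1 by the averaged probes of miR-200a-3p, also fell to 0 with the 90th percentile over all miRNAs, summed intensity, brightest probe, normexp with and without an offset, detection by over 50% of the spots, signals above negative controls, the table under either naming, and the higher floor, and the ratio of miR-200a-3p, where one could be given, ranged from 1.21-fold to 3.49-fold. The causes were not tested apart from those named. Signals near the negative controls limit what can be said of miR-200a-3p, miR-429 and the 5p strands. No paired analysis was possible because a single array stands for each group.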
